A study of Mus musculus with 24 samples.

Results

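The first day of ozone (O3) in the lungs of wild-type mice was examined on 6 of the 24 arrays of the study. The 6 were chosen by their titles, 3 from Tnfr+/+ lungs after 24 h of continuous 0.3 ppm O3 and 3 from Tnfr+/+ lungs in filtered air, with 1 array for each mouse. Both groups were male C57BL/6J mice aged 6 to 8 weeks, unmodified at either TNF receptor gene, and differed by exposure. Tnfr+/+ lungs after 48 h and 72 h of O3, and Tnfr-/- lungs after 24 h of O3 or in air, from mice of a B6.129S line that lacks both TNFR1 and TNFR2, were used for comparison. The O3 mice were killed when the exposure ended and the air mice were housed in a separate chamber. How long the air mice stayed there, and at which hour of the day each lung was taken, is not given in the sources used here. The RNA came from homogenized left lung, a mixture of epithelium, vessels, connective tissue and leukocytes, so fewer cells of a type and less RNA per cell cannot be told apart.

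O3 reacts with the fluid that lines the airways and with the membranes beneath it, and the oxidized lipids and injured epithelial cells that result are known to set off an inflammatory response. Cytokines of the IL-6 family, among them IL-6 and oncostatin M, act through receptors that share the gp130 chain and activate the transcription factor STAT3, which in turn induces acute phase proteins and its own inhibitor, SOCS3. Oxidants also release the transcription factor NRF2, which drives glutathione synthesis and other antioxidant enzymes, and metals and oxidants induce the metallothioneins. Macrophages that respond to IL-4 and IL-13 make a separate set of proteins, with resistin-like molecule alpha (Retnla) and the chemokine CCL17 among them.

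The array, Affymetrix MOE430A, reads each gene with 1 or more probe sets, and the values here are quantile-normalized intensities. The 6 arrays were alike in quality. The median signal before normalization was 223 to 236 after O3 and 230.0 to 232 in air, and each array's mean correlation with the other 23 was 0.933 to 0.944 after O3 and 0.934 to 0.944 in air. The ratio of 3' to 5' signal of the control probe sets, which grows as RNA degrades, was 1.53 to 1.74 after O3 and 1.31 to 1.56 in air for Gapdh, and 1.31 to 1.95 after O3 and 1.26 to 1.55 in air for actin. The part of this small gap in the results was not tested. The tissue was lung by its defining genes, since Sftpc, which encodes surfactant protein C of alveolar type 2 cells, stood at 30117 to 32126 after O3 and 30117 to 32126 in air. Scgb1a1, the secretoglobin of club cells, stood at 27743 to 27743 after O3 and 27318 to 30117 in air. Quantile normalization gives each rank the same value on every array, so equal ranges at this brightness show equal ranks rather than equal amounts. Levels of different probe sets are not compared with each other.

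At 24 h few probe sets passed the adjusted threshold, a count that depended on the estimate of the spread, as given below. Of 20537 probe sets tested, 17 passed an adjusted p under 0.05 (limma, Benjamini-Hochberg), which is 0.0828%, with 14 higher (0.0682%) and 3 lower (0.0146%) after O3. Those that rose with a single gene assigned read Retnla, Timp1, Lrg1, Mt2, Tnfrsf12a (by 2 probe sets), Ch25h, Ccl17, Socs3, Osmr, S100a14 and Slco1a5, and those that fell read AA545190, Skp2 and Apoa1. A further 2 probe sets that rose, 1418281_at and 1422179_at, have no gene name here (log2 fold changes of 1.90 and 0.81). At a nominal p, meaning one not adjusted, below 0.01, the level the study used, 206 probe sets (1.00%) were higher and 148 (0.721%) lower. The 3 O3 values lay wholly above the 3 air values in 1200 probe sets (5.84%) and wholly below in 1246 (6.07%). Counted by gene, with the brightest probe set standing for each of 11597 genes, 10 rose (0.0862%) and 1 fell (0.00862%), and the median log2 fold change over all genes was 0.00. At a nominal p below 0.05, 3.40% of these genes were higher and 2.54% lower, and 6.51% lay wholly above air and 6.14% wholly below. Counts of list members below are to be read beside these shares.

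These calls borrow strength from the other 18 arrays. With the spread estimated from the 6 arrays alone no probe set passed the adjusted threshold, while 282 had a nominal p below 0.01, and with the 12 Tnfr+/+ arrays 10 passed, 6 of them among the 17. When O3 replicate 1, 2 or 3 was left out, 13, 6 and 9 probe sets passed, of which 10, 4 and 9 were among the 17, and without air replicate 1, 2 or 3 there were 13, 7 and 17, with 9, 5 and 10 among the 17. Retnla, Timp1, Lrg1 and AA545190 passed in all 6 of these fits, with adjusted p values of at most 0.025. Of the unnamed pair, 1418281_at kept its call only without air replicate 3 (adjusted p up to 0.17) and 1422179_at in none of the 6 (up to 0.21), and on the values as deposited neither passed (0.084 and 0.062). Calls of named genes that were lost with an array left out are given with each gene.

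**Figure D1:**
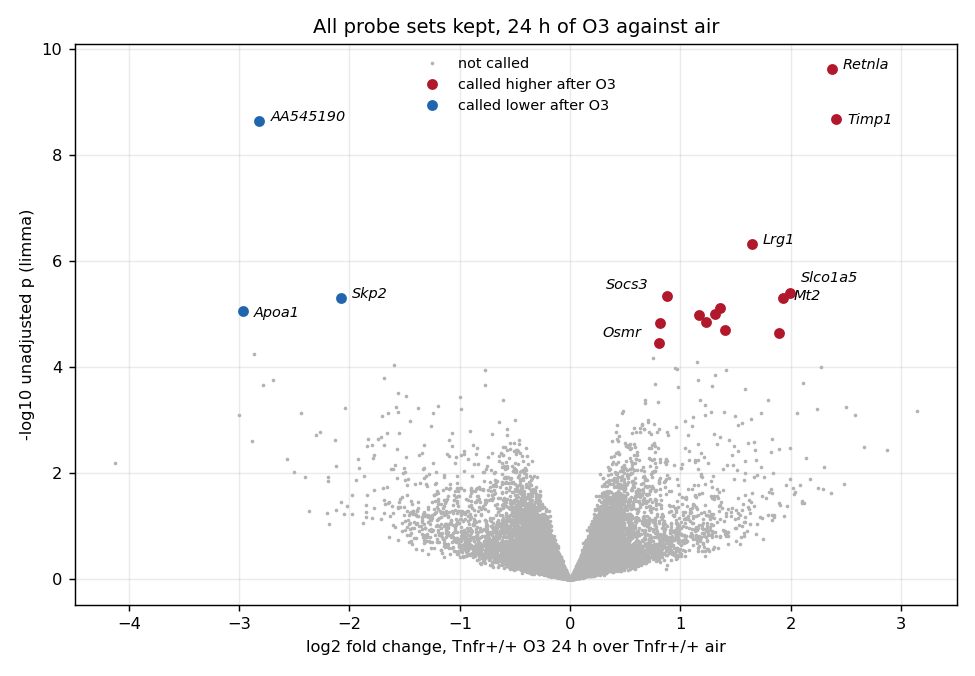
Each point is 1 of the 20537 probe sets tested, with the log2 fold change of 24 h O3 over air in Tnfr+/+ lungs on the x axis and minus log10 of the unadjusted limma p on the y axis. The 14 probe sets called higher are red and the 3 called lower are blue, and Retnla, Timp1 and AA545190 stand above all others.

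Among the called genes were a receptor, an inhibitor and several targets of the IL-6 family and STAT3. Osmr, the receptor chain for oncostatin M, had 2261, 2762 and 2074 after O3 and 1397, 1184 and 1443 in air (log2 fold change 0.81, standard error 0.14, adjusted p = 0.022, n = 3 arrays each here and below). Socs3, the feedback inhibitor of this receptor family, had 869, 949 and 829 after O3 and 525, 479.9 and 435 in air on 1 of its 3 probe sets (0.88, standard error 0.14, adjusted p = 0.013). In both genes every O3 array was above every air array. Timp1, an inhibitor of matrix metalloproteinases that STAT3 induces, had 1375, 1918 and 1548 after O3 and 424, 218 and 292 in air, a fold of 5.33 (2.41, standard error 0.22, adjusted p = 1.6e-05). Lrg1, an acute phase glycoprotein with leucine-rich repeats, had 2997, 2907 and 4094 after O3 and 996, 1201 and 976 in air (1.64, standard error 0.22, adjusted p = 0.0025). Both genes had all 3 O3 arrays far above the air range, and their calls held with any 1 of the 6 arrays left out. The other probe sets of Socs3 were 1.11 and 0.98 above air in log2 (adjusted p = 0.25 and 0.14) and the second of Osmr 0.66 (adjusted p = 0.75), each with groups apart. Osmr no longer passed without O3 replicates 1 or 2 or air replicates 1 or 2 (adjusted p up to 0.17), nor Socs3 without O3 replicate 2 or air replicates 2 or 3 (up to 0.092).

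**Figure D2:**
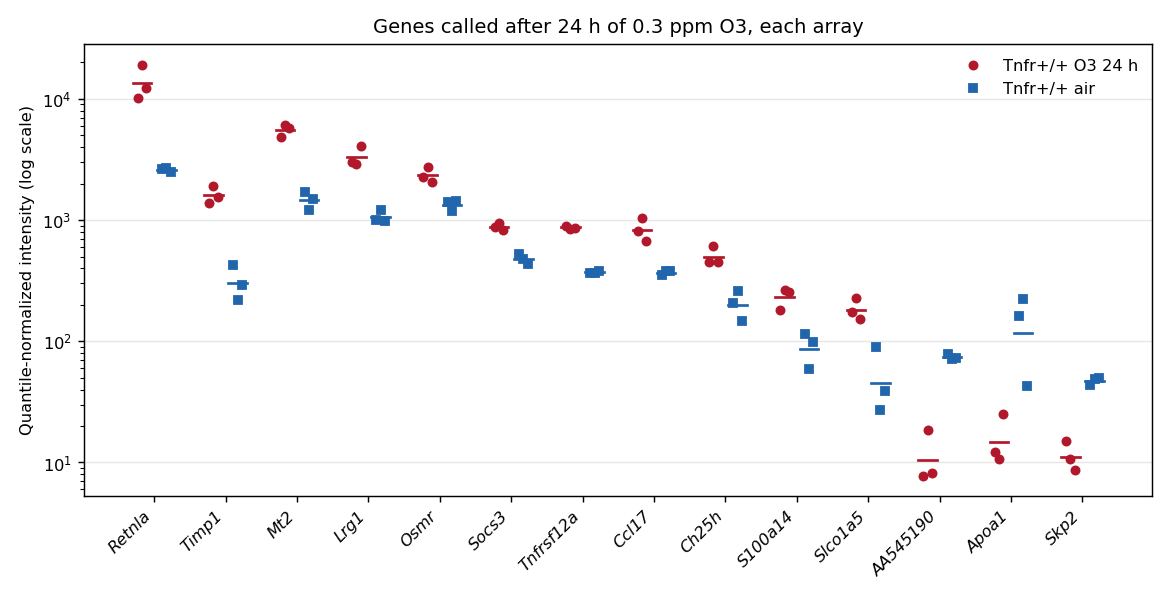
The quantile-normalized intensity (log axis) of the 14 named genes that passed the adjusted threshold is shown for each array, with 24 h O3 as red circles, air as blue squares and bars at the geometric means. The O3 and air arrays are apart for all 14, and AA545190, Apoa1 and Skp2 are the 3 that were lower after O3.

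Among 23 genes that STAT3 is known to induce, 4 rose (Timp1, Lrg1, Tnfrsf12a and Osmr) and none fell, where 0.0862% of all genes rose. This list, like the others below, was drawn up with earlier results of these data known. Its counts set beside those of all genes are therefore a description and not a test. Socs3 enters the list through its brightest probe set, which did not pass. At a nominal p below 0.05, 9 of the 23 were higher (39.1%, where 3.40% of all genes were higher and 2.54% lower) and none lower, and in 14 the O3 arrays lay wholly above the air arrays (6.51% of all genes). The median log2 fold change of the list was 0.45, and the mean log2 level of its genes relative to air was 0.56, 0.64 and 0.58 in the 3 O3 arrays and 0.08, -0.02 and -0.06 in the 3 air arrays. The members beyond those called included Saa3, an acute phase serum amyloid, with 409, 442 and 459 after O3 and 201, 192 and 197 in air (log2 fold change 1.15, adjusted p = 0.083). Lcn2, an iron-binding protein of epithelium and neutrophils, gave a log2 fold change of 0.56, the kinase gene Pim3 0.45 and the IL-4 receptor chain Il4ra 0.42 (adjusted p = 0.72, 0.75 and 0.82). Stat3 itself was at 2599, 2296 and 2466 after O3 and 2015, 2403 and 1918 in air, with overlapping groups. The ligand gene Il6 was at 57.1, 79.3 and 54.0 after O3 and 32.6, 20.6 and 58.8 in air, again overlapping. Of 20 ligands, receptors and signal transducers of the family, Osmr was the single one called, and Cish, another SOCS family gene, was lower (851, 890.4 and 980.3 after O3 against 1184, 1254 and 1202 in air, adjusted p = 0.57).

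The 25 acute phase genes measured had 1 called member (Lrg1) and a median log2 fold change of 0.21. Of the 25, 7 were higher and none lower at a nominal p below 0.05 (3.40% and 2.54% of all genes). Lrg1, Saa3 and Lcn2 stand in this list and in that of STAT3 targets, so the 2 lists are not independent. Serpina3n, a protease inhibitor, had 1265, 1503 and 1293 after O3 and 861, 649 and 708 in air (0.88, adjusted p = 0.34). Steap4, a metalloreductase, had 306, 468 and 356 after O3 and 230.4, 158 and 259.7 in air (0.81, adjusted p = 0.50). Itih4, an inter-alpha-trypsin inhibitor chain, stood 0.41 above air in log2 (adjusted p = 0.84). The O3 and air arrays did not overlap for any of these. Myd88, the adaptor of toll-like and IL-1 receptors, had 1338, 1556 and 1247 after O3 and 1027, 1073 and 1107 in air (0.36, adjusted p = 0.56), also apart. In the 27 genes of IL-1 and toll-like receptor signaling, 2 were higher and none lower at a nominal p below 0.05.

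Retnla, a secreted product of alternatively activated macrophages and airway epithelium in mice, had the smallest p of all probe sets. It stood at 10151, 19164 and 12354 after O3 and 2625, 2669 and 2476 in air, a fold of 5.17 (log2 fold change 2.37, 95% interval 1.97 to 2.77, adjusted p = 5.1e-06). The 3 air arrays lay close together, and O3 replicate 2 was the highest of the O3 arrays. Ccl17, which attracts T cells through CCR4, had 813, 1036 and 675 after O3 and 352, 378 and 377 in air (1.17, standard error 0.19, adjusted p = 0.018). Its call was lost without O3 replicates 1 or 2 or any 1 air array (adjusted p up to 0.13). Ccl22, the other ligand of CCR4 and a neighbour of Ccl17 in the genome, had 267, 337 and 200.2 after O3 and 139, 85.3 and 75.5 in air (1.44, adjusted p = 0.40). It was higher in each O3 array than in any air array. In the list of 21 genes of alternative macrophage activation, 2 rose (Retnla and Ccl17, where 0.0862% of all genes rose), 6 were higher and none lower at a nominal p below 0.05 (3.40% and 2.54% of all genes), and the median was 0.28. Mrc1, the mannose receptor, had 1041, 1026 and 1028 after O3 and 911, 526 and 876 in air (0.46, adjusted p = 0.87). Chil1, a chitinase-like protein, had 7631, 8817 and 8506 after O3 and 6052, 7056 and 5600.1 in air (0.42, adjusted p = 0.87).

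Chemokine genes were more often higher than lower after O3. Of 32 measured, Ccl17 rose (0.0862% of all genes did), 9 were higher and none lower at a nominal p below 0.05 (3.40% and 2.54% of all genes), and the median log2 fold change was 0.17. For the 17 C-C ligands alone the median was 0.43 and for the 12 C-X-C ligands 0.25. Ccl7, which attracts monocytes, stood at 67.7, 137 and 73.1 after O3 and 12.1, 30.4 and 16.3 in air (2.28, adjusted p = 0.090). Cxcl5, which attracts neutrophils, had 218, 211 and 154 after O3 and 47.5, 55.3 and 67.5 in air (1.77, adjusted p = 0.76). Cxcl14, made by epithelium, had 1641, 1977 and 1393 after O3 and 1224, 1161 and 1095 in air (0.51, adjusted p = 0.75). The 3 genes were each apart between the groups. Ccl20, the ligand of CCR6, was split within both groups, with 203, 45.6 and 199 after O3 and 30.5, 123 and 30.8 in air. Ccl24, an eosinophil attractant, had 2 high O3 arrays and 1 just above air, at 178, 157 and 42.8 after O3 and 26.5, 37.2 and 40.2 in air. Cxcl15, a chemokine of lung epithelium in mice, stood at 16280.0, 16991 and 16595 after O3 and 15472, 12604 and 14836 in air (0.22, adjusted p = 0.84). Of the 21 chemokine receptors, 1 was higher and 1 lower at a nominal p below 0.05. The lower one was Ackr4, a scavenging receptor (25.3, 27.2 and 40.4 after O3 against 65.6, 112 and 118 in air, adjusted p = 0.35).

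Socs3 and Ccl17 are shown with their start regions because, of the called genes with a promoter in the table used, they hold the palindrome TTCNNNGAA that STAT proteins are known to bind. The sequences are RefSeq promoters of GRCm38.p6, 250 bases before to 50 after the start, 5' to 3' on the strand of the gene, with the palindrome in capitals. Of the 11 named genes that rose, 10 had a promoter there, and the palindrome, which reads the same on both strands, occurs in these 2 and in 1 of the 2 promoters listed for Slco1a5. It occurs in 8.3% of all 32851 promoters of this length. The Socs3 region is chr11:117969317-117969616 on the minus strand and that of Ccl17 is chr8:94810203-94810502 on the plus strand.
Socs3: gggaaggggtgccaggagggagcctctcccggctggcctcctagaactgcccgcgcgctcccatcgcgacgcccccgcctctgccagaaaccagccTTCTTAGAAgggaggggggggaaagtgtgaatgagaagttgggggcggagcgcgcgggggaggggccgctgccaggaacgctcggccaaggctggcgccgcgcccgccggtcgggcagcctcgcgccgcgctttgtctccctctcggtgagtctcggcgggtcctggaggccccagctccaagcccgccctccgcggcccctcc
Ccl17: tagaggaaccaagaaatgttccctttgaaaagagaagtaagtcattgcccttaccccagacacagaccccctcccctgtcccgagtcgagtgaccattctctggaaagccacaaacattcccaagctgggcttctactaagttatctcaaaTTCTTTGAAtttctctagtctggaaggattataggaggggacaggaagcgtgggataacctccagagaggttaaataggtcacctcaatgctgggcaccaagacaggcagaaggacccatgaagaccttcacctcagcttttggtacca

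The neighbouring metallothionein genes Mt1 and Mt2 were higher after O3, and 1 of them passed the adjusted threshold. Mt2, a small cysteine-rich protein that binds zinc and copper and scavenges oxidants, had 4879, 6107 and 5756 after O3 and 1693, 1215 and 1505 in air, a fold of 3.81 (log2 fold change 1.93, standard error 0.30, adjusted p = 0.013). Mt1, which has the same role, had 3409, 5241 and 5103 after O3 and 1846, 1721 and 1885 in air (1.31, standard error 0.27, adjusted p = 0.11), and its second probe set gave 1.40 (adjusted p = 0.24). Neither gene had an O3 array within the air range. Mt2 passed and Mt1 did not, and Mt2 in turn did not without O3 replicates 2 or 3 or air replicate 2 (adjusted p up to 0.092). When the probe sets of Mt1 were averaged, it passed (1.35 on the log2 scale, adjusted p = 0.027). Of the 15 genes of the metallothionein and zinc list, no other than these 2 had a nominal p below 0.05.

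The start regions of the pair are shown because both hold several copies of the metal response element, the site of the zinc-sensing factor MTF1. Capitals mark matches to TGCACNC or TGCGCNC on either strand, 3 in Mt1 and 4 in Mt2, none of which overlap. At least 1 match is found in 25.7% of all promoters of this length, and 3 or more in 1.97%. Both are RefSeq sequences of GRCm38.p6 on the plus strand, chr8:94178839-94179138 for Mt1 and chr8:94172368-94172667 for Mt2.
Mt1: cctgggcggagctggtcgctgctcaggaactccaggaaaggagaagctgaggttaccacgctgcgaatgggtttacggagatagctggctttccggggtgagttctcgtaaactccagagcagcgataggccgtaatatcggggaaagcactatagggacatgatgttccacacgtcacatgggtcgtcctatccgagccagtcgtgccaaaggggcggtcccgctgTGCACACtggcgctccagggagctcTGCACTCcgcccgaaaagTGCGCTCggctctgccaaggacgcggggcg
Mt2: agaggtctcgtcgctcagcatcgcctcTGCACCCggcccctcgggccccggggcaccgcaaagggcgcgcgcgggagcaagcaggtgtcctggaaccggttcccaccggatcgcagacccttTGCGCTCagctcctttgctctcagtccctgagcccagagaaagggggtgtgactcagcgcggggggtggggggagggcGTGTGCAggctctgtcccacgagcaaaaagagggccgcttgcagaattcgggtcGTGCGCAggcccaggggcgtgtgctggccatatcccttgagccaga

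The NRF2 pathway had no called gene among 39 measured, and more of its members were higher than lower. At a nominal p below 0.05, 10 were higher and 1 lower (3.40% and 2.54% of all genes). The O3 arrays lay wholly above the air arrays in 11 and wholly below in 2 (6.51% and 6.14% of all genes). The median log2 fold change was 0.12. Gclc, the catalytic subunit of the first enzyme of glutathione synthesis, had 3242, 3999.5 and 3434 after O3 and 2009.9, 2792 and 1947 in air (0.68, standard error 0.16, adjusted p = 0.21). Gpx2, an epithelial glutathione peroxidase, had 856, 1305 and 943 after O3 and 519.8, 677 and 645 in air (0.74, adjusted p = 0.42). Gsr, which regenerates glutathione, stood 0.38 above air in log2 (adjusted p = 0.52) and Nqo1, a quinone reductase, 0.65 (adjusted p = 0.57). In each of these 4 genes the groups were apart. Nfe2l2, which encodes NRF2, had 3069.8, 3108 and 3419 after O3 and 2878, 2329 and 2519 in air (0.32, adjusted p = 0.79). Of the small MAF partners, Mafk gave 0.54 with the groups apart and Maff 0.66 with overlap (adjusted p = 0.58 and 0.73). The mitochondrial superoxide dismutase Sod2 had 2346, 2197 and 2391 after O3 and 1858, 1779.6 and 1817 in air (0.35, adjusted p = 0.83). Cat, the catalase gene, was the lower one (2472, 2088 and 2594 after O3 against 2864, 2861 and 2885 in air, adjusted p = 0.75).

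Genes of sterol metabolism lay on both sides of air. Ch25h, the enzyme that makes 25-hydroxycholesterol, had 449, 606 and 451 after O3 and 208, 259 and 147 in air (1.32, standard error 0.22, adjusted p = 0.018), a call that was lost without O3 replicates 2 or 3 or air replicates 1 or 3 (adjusted p up to 0.13). Of 21 cholesterol synthesis genes none passed, and the median was 0.25. At a nominal p below 0.05, 7 were higher and none lower (3.40% and 2.54% of all genes). Cyp51, a demethylase of lanosterol, had 364, 481 and 363 after O3 and 189, 227 and 206 in air (0.95, adjusted p = 0.090). Idi1, the isomerase of the isoprenoid branch, had 861, 1446 and 1092 after O3 and 659, 523 and 737 in air (0.81, adjusted p = 0.33). Sqle and Hmgcs1, of the squalene and mevalonate steps, gave 0.57 and 0.47 (adjusted p = 0.53 and 0.56), and all 4 were apart between the groups. Of 20 oxysterol and LXR genes Ch25h rose (0.0862% of all genes did), and 2 were higher and 4 lower at a nominal p below 0.05. Of the 20, 2 lay wholly above air and 6 wholly below (6.51% and 6.14% of all genes), and the median was -0.11. The other higher one was Cyp7b1, an oxysterol hydroxylase (0.98, adjusted p = 0.75). Cyp27a1, a sterol hydroxylase, had 447, 341 and 358 after O3 and 495, 681 and 480.3 in air (adjusted p = 0.57). Npc1, of lysosomal cholesterol export, had 431, 404 and 352 after O3 and 643, 799 and 536 in air (adjusted p = 0.65). The LXR target genes Abcg1 and Mylip had log2 differences of -0.37 and -0.43 from air (adjusted p = 0.70 and 0.63).

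A pair of called genes, Tnfrsf12a and S100a14, belong to injured tissue and to epithelium. Tnfrsf12a, which encodes the TWEAK receptor and is known from wounded tissue, was called by both of its probe sets. The first had 901, 849 and 861 after O3 and 363, 368 and 382 in air (1.23, standard error 0.21, adjusted p = 0.022), and the second had 757, 725 and 695 after O3 and 286, 268 and 294 in air (1.36, adjusted p = 0.018). The arrays of each group lay close together. With 1 array fewer the first probe set passed in none of the 6 fits (adjusted p up to 0.11) and the second passed only without air replicate 3 (up to 0.092). S100a14, a calcium-binding protein of epithelium, had 179.7, 266 and 256 after O3 and 114, 59.0 and 98.1 in air (1.40, standard error 0.25, adjusted p = 0.028), a call lost without O3 replicates 2 or 3 or air replicates 2 or 3 (up to 0.18) and on the values as deposited (adjusted p = 0.062). In the list of 29 epithelial injury and squamous genes, 1 rose (S100a14) and the median was 0.18. At a nominal p below 0.05, 8 were higher and none lower (3.40% and 2.54% of all genes).

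Sprr1a, a protein of the cornified envelope, had 444, 670.3 and 549 after O3 and 203, 279 and 287 in air (1.11, adjusted p = 0.30). Tgm1, the enzyme that cross-links that envelope, had 106, 107 and 100.3 after O3 and 51.2, 44.7 and 53.9 in air (1.06, adjusted p = 0.36). Ereg, an EGF receptor ligand, was dim but apart, with 80.6, 78.7 and 72.7 after O3 and 28.9, 39.4 and 32.0 in air (1.22, adjusted p = 0.23). Among 34 genes of collagens and matrix the 2 with the smallest p were Tnc and Thbs1, which encode the wound proteins tenascin C and thrombospondin 1. Tnc had 524, 907 and 548 after O3 and 302, 214 and 285 in air (1.27, adjusted p = 0.24). Thbs1 had 2356, 2946 and 2754 after O3 and 1532, 1032 and 952 in air (1.22, adjusted p = 0.25). The median of the 34 was 0.00, with 4 higher and none lower at a nominal p below 0.05. Pigr, which carries IgA across epithelium, had 2187, 2571 and 1306 after O3 and 664, 445 and 921 in air (1.58, adjusted p = 0.15). Sfn, an epithelial 14-3-3 protein, had 325, 365 and 185 after O3 and 113, 114 and 79.6 in air (1.47, adjusted p = 0.53). In both genes the O3 arrays lay wholly above the air arrays, with O3 replicate 3 the lowest of them.

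**Figure D3:**
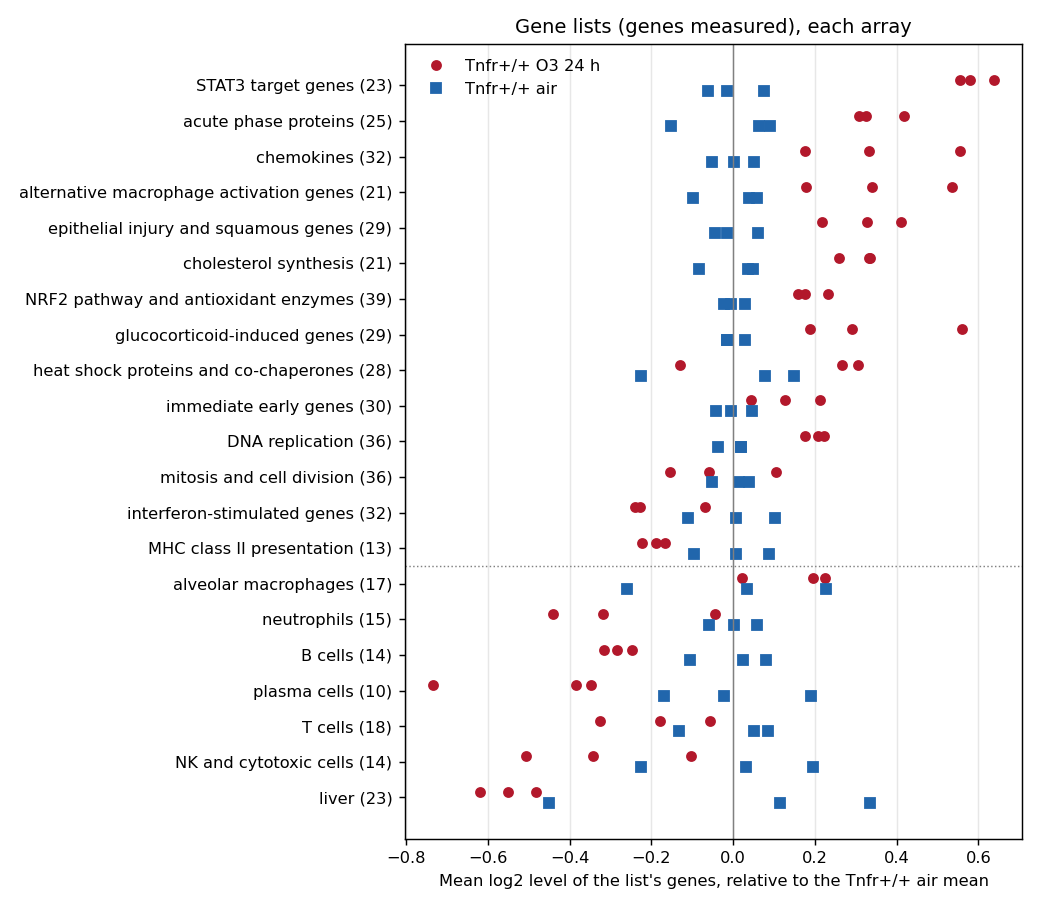
For each gene list, the mean log2 level of its measured genes relative to the mean of the 3 air arrays (x axis) is given for each array, with 24 h O3 (red circles) above air (blue squares) and the number of genes in brackets. STAT3 targets lie at 0.56, 0.64 and 0.58 in the O3 arrays, apart from air, while heat shock and mitosis genes overlap with air, and of the markers under the dotted line, the B cell, plasma cell and liver lists lie to the left of air in all 3 O3 arrays and the alveolar macrophage list does not.

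Stress transcripts of the cytosol were uneven. Hspa1a, which encodes an inducible heat shock protein of the HSP70 class, had 2744, 3322 and 1348 after O3 and 872, 731 and 495 in air (1.76, standard error 0.63, adjusted p = 0.61). Hspa1b, a near-identical copy whose transcript the same probes may read, had 8947, 10674 and 5650.4 after O3 and 5069, 4939.8 and 1995 in air (1.14, adjusted p = 0.83). The co-chaperone genes Dnajb1 and Chordc1 were 1.08 and 0.77 above air in log2 (adjusted p = 0.50 and 0.42), with the groups apart. In all 4 genes O3 replicate 3 was the lowest of the O3 arrays, and for Hspa1a and Hspa1b air replicate 3 was the lowest air array. The mean log2 level of the whole list relative to air was 0.27, 0.31 and -0.13 after O3 and 0.08, 0.15 and -0.23 in air. Serpinh1, the collagen chaperone, lay below air (4856, 4826 and 3166 after O3 against 6043, 6168 and 4900.4 in air, adjusted p = 0.70). Over the 28 heat shock and co-chaperone genes none passed, and the median was 0.00. At a nominal p below 0.05, 7 were higher and 2 lower (3.40% and 2.54% of all genes). Of the unfolded protein response, Atf4, a translation-controlled transcription factor, had 3599.7, 3769 and 3620.1 after O3 and 2201, 2316 and 2228 in air (0.70, adjusted p = 0.28). Atf3, which stress induces, had 238, 257 and 290.3 after O3 and 197, 134 and 94.9 in air (0.94, adjusted p = 0.54). Those were the 2 of 28 with a nominal p below 0.05, and the median was 0.06.

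Genes that glucocorticoids induce showed 10 of 29 members wholly above air and 1 wholly below (6.51% and 6.14% of all genes), 5 higher and none lower at a nominal p below 0.05 (3.40% and 2.54%), and a median of 0.25. Mt2 was the called member, and Mt2, Mt1 and Lcn2, 3 of the 5, also stand in other lists above. Fkbp5, a chaperone of the glucocorticoid receptor, had 1046, 1122 and 1527 after O3 and 875, 564 and 864 in air (0.69, adjusted p = 0.83). Tsc22d3 and Per1, which the hormone also induces, overlapped between the groups (log2 fold changes 0.17 and 0.51, adjusted p = 1.0 and 0.94). Among 19 clock genes, Nr1d1, a repressor of the molecular clock, had 439, 577 and 565 after O3 and 911, 1082 and 1167 in air (-1.002, adjusted p = 0.19). Dbp, an output gene of the clock, had 156, 204 and 149 after O3 and 277, 289.6 and 458 in air (-0.99, adjusted p = 0.24). Nfil3, which opposes Dbp, lay the other way, at 409, 606 and 383 after O3 and 261, 213 and 194 in air (1.05, adjusted p = 0.43). In all 3 the groups were apart, and no other clock gene had a nominal p below 0.05. Clock genes vary with the hour of the day, and the part of the hour at which the lungs were taken was not tested.

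All 3 probe sets that fell were dim. AA545190, an expressed sequence of no assigned function here, had 7.80, 18.5 and 8.18 after O3 and 78.5, 72.0 and 72.9 in air (-2.82, standard error 0.26, adjusted p = 1.6e-05), and its mean level was at the 11.7th percentile of all probe sets kept. With the floor raised to 16, above 2 of its 3 O3 values, the log2 fold change was -2.15, so the size of this fall is uncertain. Apoa1, the main apolipoprotein of HDL, had 12.2, 10.6 and 25.2 after O3 and 162, 223 and 43.0 in air on the probe set called (-2.97, adjusted p = 0.018), and its other 2 probe sets gave -1.31 and -2.79 (adjusted p = 0.61 and 0.13). All 3 were apart between the groups, and air replicate 3 was the lowest of the air arrays of the called probe set. Skp2, a subunit of a ubiquitin ligase that acts on cell cycle inhibitors, had 15.2, 10.6 and 8.63 after O3 and 43.4, 48.6 and 49.3 in air on the probe set called (-2.08, adjusted p = 0.013), at the 6.26th percentile. Its other 5 probe sets overlapped, and the brightest gave 0.33 on the log2 scale (adjusted p = 0.92), so its probe sets disagree. The same holds upward for Slco1a5, an organic anion transporter, with 173, 228 and 152 after O3 and 90.5, 27.0 and 38.9 in air on 1 probe set (1.99, adjusted p = 0.013) and a log2 fold change of 0.16 on the other, where the groups overlapped. The call of Apoa1 was lost without O3 replicates 1 or 2 or air replicates 1 or 2, that of Skp2 without O3 replicates 2 or 3 or air replicate 2, and that of Slco1a5 without O3 replicate 2 or air replicates 2 or 3 (adjusted p up to 0.13, 0.092 and 0.092). The Skp2 call was also lost with intensities floored at 16 (-1.56, adjusted p = 0.067) and with a trended, robust spread (adjusted p = 0.070), and the stricter filter on dim values removed the called probe sets of all 4 genes.

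Among brighter genes the largest downward differences in log2 that met a nominal p below 0.01 with groups apart included genes not yet described, and none of them passed. Zfp503, a zinc finger repressor of development, had 318, 212 and 302 after O3 and 1152, 651 and 435 in air (-1.33, adjusted p = 0.56). Meis1, a homeobox factor, had 304, 189 and 186 after O3 and 359, 414 and 493 in air (-0.93, adjusted p = 0.50). Each had O3 arrays wholly below air. Vsir, an inhibitory receptor of myeloid and T cells, had 432, 436 and 432 after O3 and 652, 753 and 825 in air (-0.77, adjusted p = 0.13). Thbs3, a thrombospondin, had 585, 602 and 398 after O3 and 874, 929 and 852 in air (-0.77, adjusted p = 0.090).

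None of the measured genes of the next programs passed. Of 36 genes of mitosis and cell division none passed, 1 was higher and 3 lower at a nominal p below 0.05, and the median was 0.00. Ccnb2, a mitotic cyclin, had 118, 88.7 and 80.3 after O3 and 129, 163 and 96.3 in air (-0.42, adjusted p = 0.80), overlapping. The 36 DNA replication genes had 4 higher and none lower by that measure, and their median was 0.13. Mcm4, a subunit of the replicative helicase, gave 0.38 with the groups apart (adjusted p = 0.78). None of the 32 interferon-stimulated genes had a nominal p below 0.05 (median -0.10). Of 30 immediate early genes 2 were higher and 1 lower (median 0.13). Egr1, an early growth response factor, overlapped, with 1146, 1051 and 1009 after O3 and 1233, 948 and 1176 in air. Of 36 NF-kB subunits, inhibitors and target genes none passed, and the median was 0.08. At a nominal p below 0.05, 7 were higher and 3 lower (19.4% and 8.33%, against 3.40% and 2.54% of all genes). Birc3, an inhibitor of apoptosis, had 833, 981 and 1090.5 after O3 and 733, 728 and 712 in air (0.41, adjusted p = 0.78). Traf1, an adaptor of TNF receptors, had 131, 127 and 144 after O3 and 194, 318 and 203 in air (-0.79, adjusted p = 0.72).

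Of the neutrophil markers, 4 stood lower after O3 in every array, although none of these differences passed. S100a8, a calprotectin gene of neutrophils, was at 463, 244 and 566 after O3 and 1827, 1193 and 1208 in air. S100a9, its partner, was at 349.8, 329 and 542 after O3 and 1559, 1557 and 1042 in air. Every O3 array lay below every air array for both (log2 fold changes of -1.79 and -1.78, standard errors 0.56 and 0.55, adjusted p = 0.50 and 0.47). Csf3r, the G-CSF receptor, had 231, 125 and 242 after O3 and 502, 315 and 379 in air (-1.03, adjusted p = 0.48). Mmp9, a gelatinase of neutrophil granules, had 345, 316 and 263 after O3 and 408, 463 and 436 in air (-0.51, adjusted p = 0.56). The groups were apart for both of these as well. Of the 15 neutrophil markers measured these 4 were lower and 1, Lcn2, higher at a nominal p below 0.05 (2.54% and 3.40% of all genes). The list's median log2 fold change was -0.04. The summed intensity of the 15 was 5018 to 6071 after O3 and 6696 to 7705 in air. S100a8 and S100a9 hold a large part of that sum in air. With each marker weighted equally the groups overlapped, at a mean log2 level of -0.32, -0.44 and -0.05 after O3 and 0.06, 0.00 and -0.06 in air. By log2 fold change 7 markers were above 0 and 8 below. Lcn2, which epithelium also makes, had 1471, 1679.7 and 1931 after O3 and 1217, 1344 and 919 in air.

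Lymphocyte markers also had medians below 0. Of 14 B cell markers none passed, 2 were lower and none higher at a nominal p below 0.05, 4 lay wholly below air (6.14% of all genes did) and the median was -0.29. Ms4a1, which encodes CD20, had 305, 348 and 368 after O3 and 638, 425 and 596 in air (-0.68, adjusted p = 0.81). Cd79b, of the B cell receptor, had 459, 443 and 447 after O3 and 629, 776 and 654 in air (-0.61, adjusted p = 0.83). The medians were -0.29 for 10 plasma cell, -0.16 for 18 T cell and -0.30 for 14 NK and cytotoxic cell markers, with 1 gene lower and none higher at a nominal p below 0.05 in each. Without O3 replicate 2 the T cell median was 0.02. The 3 genes were Iglv1, Cd2 and Ncr1, each with the groups apart. Iglv1, an immunoglobulin light chain, had 77.5, 99.7 and 25.6 after O3 and 150.4, 169 and 196 in air (adjusted p = 0.35). Cd2, an adhesion molecule of T cells, had 94.8, 97.8 and 93.7 after O3 and 159, 213 and 129 in air (adjusted p = 0.64). Ncr1, an NK receptor, had 135, 85.6 and 138 after O3 and 171, 192 and 157 in air (adjusted p = 0.66). None of the 3 passed. H2-Ab1, of MHC class II, had 2376, 1952 and 1929 after O3 and 2836, 2994 and 3776 in air (-0.61, adjusted p = 0.81), and the 13 class II genes had a median of -0.20.

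Macrophage markers had medians on either side of 0. Of 17 alveolar macrophage markers 2 were higher and none lower at a nominal p below 0.05, and their median was 0.16, or -0.04 without air replicate 2. Marco, a scavenger receptor, had 147, 318 and 195 after O3 and 115, 129.6 and 136 in air (0.72, adjusted p = 0.72). Msr1, another scavenger receptor, had 143, 134 and 118 after O3 and 82.1, 88.6 and 99.998 in air on its brightest probe set (0.55, adjusted p = 0.50). The O3 and air arrays were apart for both, Marco by the narrower margin. The dimmer probe sets of Msr1 gave 0.05, 0.08 and 0.91 (adjusted p = 0.999, 0.999 and 0.97). Of the 17 markers 13 lay above 0 and 4 below, among the latter Trem2 (-1.26, adjusted p = 0.95) and Krt79 (-0.37, adjusted p = 0.91). The 18 monocyte and interstitial macrophage markers had a median of -0.02 and no gene under a nominal p of 0.05. For resident cells of the lung the medians were -0.09 for alveolar type 1, 0.03 for alveolar type 2, 0.06 for club, 0.05 for ciliated and -0.13 for endothelial cell markers.

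**Figure D4:**
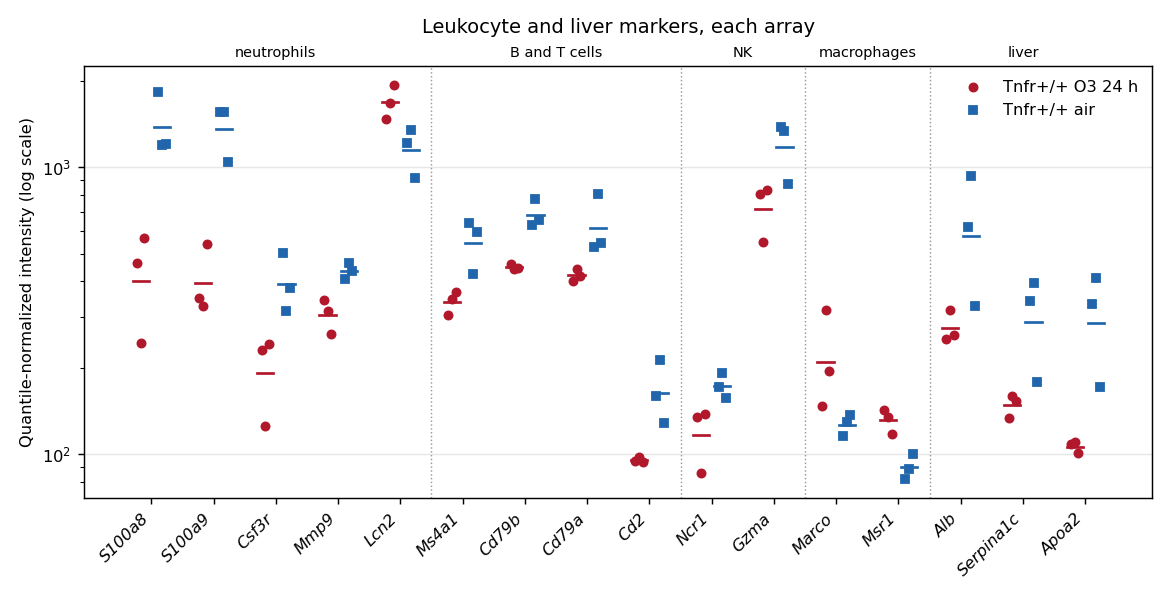
Quantile-normalized intensities (log axis) of markers of neutrophils, B and T cells, NK cells, macrophages and liver are shown for each array, with 24 h O3 as red circles, air as blue squares and bars at the geometric means. S100a8 and S100a9 lie lower after O3 in all 3 arrays, at 244 to 566 and 329 to 542, whereas Lcn2, Marco and Msr1 lie higher.

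In Tnfr+/+ lungs, transcripts known mainly from liver had lower values after O3 than in air, and 1 probe set of this group, of Apoa1, passed. Alb, the serum albumin gene, had 251, 318 and 259 after O3 and 620.1, 936 and 328 in air (-1.07, standard error 0.31, adjusted p = 0.43). Serpina1c, of the alpha-1 antitrypsin family, had 134, 159.8 and 154 after O3 and 343, 395 and 179 in air (-0.96, adjusted p = 0.72). Apoa2, another apolipoprotein of HDL, had 108, 109.9 and 101 after O3 and 333, 409.6 and 171 in air (-1.43, adjusted p = 0.87). The groups were apart in each, and air replicate 3 was the lowest air array. Of 23 liver markers, 8 lay wholly below air and none above (6.14% and 6.51% of all genes), 4 were lower and none higher at a nominal p below 0.05 (2.54% and 3.40%), and the median was -0.48. Their mean log2 level relative to air was -0.55, -0.48 and -0.62 in the O3 arrays and 0.12, 0.34 and -0.45 in the air arrays, so air replicates 1 and 2 stood apart from air replicate 3. These values move with the call of Apoa1, and their part in it was not tested. In Tnfr-/- air arrays, without O3, the list lay at -1.19, -0.86 and -0.58 relative to Tnfr+/+ air. The called Apoa1 probe set was at 22.3, 11.1 and 20.1 in those arrays. Low values were thus not found only after O3. Those mice differ in genotype, and its part was not tested. Markers of heart (17 genes, median -0.04) and thymus (6 genes, median -0.12) had 1 and 0 genes under a nominal p of 0.05.

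The later times were read for the called genes. The 24 h arrays enter each comparison with a later time as well as that with air, so these differences are not independent of the choice of genes. Over all probe sets 41 (0.200%) passed between 48 h and 24 h and 300 (1.46%) between 72 h and 24 h, counting either direction. Retnla stood at 19893, 22649 and 17642 after 48 h and 20712, 18899.5 and 21771 after 72 h, and the difference from 24 h did not pass at either time (0.58 in log2 after 48 h, adjusted p = 0.32, and 0.61 after 72 h, adjusted p = 0.12). Retnla is bright after O3 and its values too are set by rank, and whether this hides a further rise was not tested. Timp1 was at 2108, 1924 and 1756 after 48 h and 1528, 1904 and 1730.0 after 72 h (differences from 24 h 0.27 and 0.10, adjusted p = 0.77 and 0.88). Of the called genes with a further rise, Lrg1 reached 10339, 5971 and 5084 at 72 h (1.05 over 24 h, adjusted p = 0.021). The highest of those arrays, Tnfr+/+ O3 72 h replicate 1, stands apart in quality, with a Gapdh 3'/5' ratio of 4.45, and without it the difference was 0.74 (adjusted p = 0.070). S100a14 rose further with or without that array (1.05 and 1.29, adjusted p = 0.040 and 0.017), whereas the first Tnfrsf12a probe set passed only with it (0.97 and 0.78, adjusted p = 0.025 and 0.098) and the second passed neither way (0.84 and 0.56, adjusted p = 0.066 and 0.21). The unnamed 1418281_at passed both ways (2.31 and 2.34, adjusted p = 0.0013 and 0.0053).

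Mt2, Osmr and Slco1a5 had lower means at both later times, and none of these differences passed. Mt2 was at 4025, 3643 and 5583 after 48 h and 3842, 3093 and 3034 after 72 h (-0.36 and -0.75 against 24 h, adjusted p = 0.78 and 0.24), and Osmr at 2195, 2108 and 1511 after 48 h and 1782, 1858 and 1724 after 72 h (-0.30 and -0.39, adjusted p = 0.53 and 0.18). Slco1a5 differed from 24 h by -0.70 after 48 h and -1.03 after 72 h (adjusted p = 0.49 and 0.10). AA545190 stood at 49.0, 67.5 and 71.4 after 48 h and 56.9, 104 and 79.4 after 72 h, close to its values in air, and both rises over 24 h passed (2.55 and 2.88, adjusted p = 0.00015 and 8.4e-06). The called Skp2 probe set was likewise above its 24 h level, and the difference passed at 72 h (1.57, adjusted p = 0.021) but not at 48 h (1.52, adjusted p = 0.068). Ccnb2, not called at 24 h, reached 300.1, 371 and 318 after 48 h and 591, 420.4 and 466 after 72 h (1.80 and 2.37 over 24 h, adjusted p = 0.00015 and 1.8e-06). The median of its 36 mitosis genes against air was 0.00 at 24 h, 0.99 at 48 h and 1.39 at 72 h. S100a8 differed from 24 h by 1.01 after 48 h (adjusted p = 0.62) and by 1.72 after 72 h (adjusted p = 0.14).

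**Figure D5:**
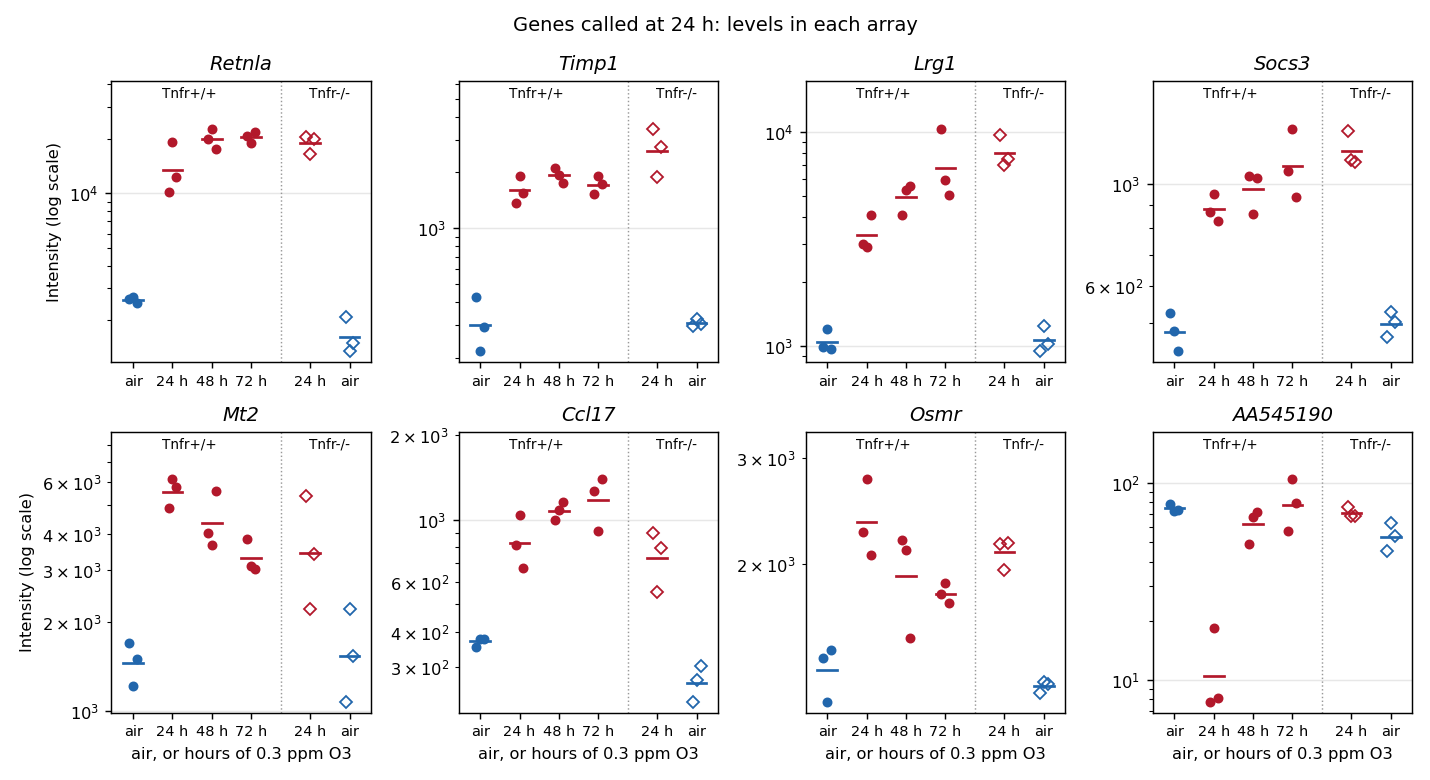
Intensity (log axis) of 8 genes called at 24 h is shown for each array in Tnfr+/+ lungs in air and after each of the 3 O3 exposures, 24 h, 48 h and 72 h (filled), and in Tnfr-/- lungs after 24 h of O3 and in air (open), with bars at the geometric means and air in blue. AA545190 is low in the Tnfr+/+ 24 h arrays only, at 7.80, 18.5 and 8.18, and Retnla and Timp1 lie above every air array at all 3 times.

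The same 24 h of O3 was also given to Tnfr-/- mice, with their own air controls. Of the 10 genes that rose in Tnfr+/+ lungs, 8 also rose in Tnfr-/- lungs, where 0.845% of all genes did. Retnla had 20438, 16464 and 19893 after O3 and 2092, 1356 and 1506 in air there (log2 fold change 3.54, adjusted p = 5.6e-09). Timp1 had 3434, 1896 and 2723 after O3 and 298, 323 and 304 in air (3.08, adjusted p = 3.9e-07), and Lrg1 had 9672, 7042 and 7455 after O3 and 953, 1246 and 1021 in air (2.90, adjusted p = 4.7e-07). All 3 had larger log2 fold changes there than in Tnfr+/+ lungs, but the difference between the genotypes did not pass for any (1.17, 0.67 and 1.26, adjusted p = 0.33, 0.80 and 0.38). The 2 that did not pass in Tnfr-/- lungs were Mt2, at 5377, 2209 and 3413 after O3 and 1074, 2212 and 1530.2 in air (1.16, adjusted p = 0.075), and Slco1a5, at 122, 90.5 and 115 after O3 and 82.6, 144 and 99.9 in air (0.03, adjusted p = 0.98). For these too the test of the difference was short of the threshold (-0.77 and -1.96, adjusted p = 0.85 and 0.29).

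Over all probe sets the response to 24 h of O3 differed between the genotypes in 2 (0.00974%). AA545190 was at 76.0, 68.4 and 68.1 after O3 and 45.3, 62.7 and 53.7 in air in Tnfr-/- lungs, where the O3 arrays were the higher (interaction 3.22, standard error 0.37, adjusted p = 0.0013, or 2.55 with a floor of 16). Egr1 was at 5103, 5703 and 5248 after O3 and 1559, 1255 and 1386 in air in Tnfr-/- lungs (1.94, adjusted p = 2.4e-05), against -0.06 in Tnfr+/+ lungs (interaction 2.00, standard error 0.27, adjusted p = 0.0055). Several lists had medians of the other sign in Tnfr-/- lungs. Among them were 0.26 for neutrophils (-0.04 in Tnfr+/+ lungs), 0.48 for B cells, 0.24 for T cells, 0.13 for plasma cells and 0.13 for chemokine receptors. Clock genes had -0.35 and glucocorticoid-induced genes -0.13, and no list was tested for the difference. By each array's mean log2 level, the T cell, plasma cell and chemokine receptor lists overlapped between O3 and air in Tnfr-/- lungs. The neutrophil and B cell lists were apart there. The B cell list lay at 0.51, 0.66 and 0.43 after O3 and 0.36, -0.34 and 0.23 in air, relative to Tnfr+/+ air, with air replicate 2 the lowest. For S100a8 and S100a9 the single-gene test of the difference did not pass (adjusted p = 0.53 and 0.47), nor for Ms4a1 and Cd79b (adjusted p = 0.64 and 0.62). STAT3 targets had a median of 0.74, cholesterol synthesis genes 0.46 and heat shock genes -0.28 in Tnfr-/- lungs. The 30 immediate early genes, Egr1 among them, had a median of 0.45 there and 0.13 in Tnfr+/+ lungs. Of the 30, 6 were called higher and none lower in Tnfr-/- lungs, where 0.845% of all genes were called higher. The Gapdh 3'/5' ratio in Tnfr-/- lungs was 1.03 to 1.22 after O3 and 1.28 to 1.43 in air. In Tnfr+/+ lungs it was 1.53 to 1.74 after O3 and 1.31 to 1.56 in air. The part of these ratios in the differences between the genotypes was not tested.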

How the data were processed

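Lung RNA of 24 mice was hybridized to Affymetrix MOE430A arrays, 1 array a mouse and 3 arrays a group. The authors deposited MAS5 signal intensities from Affymetrix Expression Console, each array scaled to a common trimmed mean (501 here) with no log step. The tables hold 22644 probe sets, 64 of them controls. Platform annotation gives 1 gene for 20338, several for 691 and none for 1551, and 20322 of the 20338 were matched to a current symbol by Entrez ID.

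Quantile normalization across the 24 arrays was followed by a floor of 1 and log2. A probe set was kept where at least 1 array placed it at its 20th percentile or higher, which left 20537. The difference between 24 h O3 and air was tested in limma 3.58.1 (lmFit and eBayes, R 4.3.3) with 8 group means over all 24 arrays, 16 residual and 2.38 prior degrees of freedom, and Benjamini-Hochberg adjustment over all probe sets kept. An adjusted p under 0.05 was a call. Fold changes are O3 over air, and error is the standard error of the fit. The study's methods name a t-test at p under 0.01, elsewhere described as moderated, and a plain t-test is run among the alternatives. A gene is represented by its kept probe set with the highest mean over the 24 arrays. Of the steps, the main limma comparison alone was tested on simulated arrays. The changes planted there were in brighter probe sets and larger than most of those called here.

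Genes were named by rule. These were all called probe sets, the 10 largest differences in each direction among brighter genes, the genes that the article discusses for 24 h, and up to 6 members of each list in order of p with its defining members. Pim3, Cat, Hspa1b, Tsc22d3, Per1, Apoa2, Egr1 and Stat3 are outside that rule and were chosen after their values were seen. The members and the 34 process lists, 25 marker lists and 28 symbol families were chosen with earlier results of these data known, so lists are described by counts and medians, with no test. No depth applies to arrays, and 3 arrays a group limit the precision. Replicates are separate mice. Alternatives changed the normalization, floor, filter, arrays in the fit, test and choice of probe set.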

Additional observations from a re-analysis of the deposited data

Results flagged for a closer look

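A test of the difference between the genotypes singled out 2 genes at 24 h. For AA545190 the log2 response to O3 was 0.40 in Tnfr-/- lungs and -2.82 in Tnfr+/+ lungs, a difference of 3.22 (limma, adjusted p = 0.0013). The Tnfr+/+ O3 values are dim, and with intensities floored at 16 the Tnfr+/+ response was -2.15 and the difference 2.55 (adjusted p = 0.00020), so the size is not exact. All 3 Tnfr-/- O3 arrays were above their air arrays (76.0, 68.4 and 68.1 after O3 and 45.3, 62.7 and 53.7 in air), and all 3 Tnfr+/+ O3 arrays were below theirs. For Egr1 the response was 1.94 in Tnfr-/- lungs and -0.06 in Tnfr+/+ lungs, a difference of 2.00 (adjusted p = 0.0055), with all 3 Tnfr-/- O3 arrays above their air arrays. The immediate early list that holds Egr1 also had the higher median in Tnfr-/- lungs, as given above. Both differences kept their direction and passed with any 1 of the 12 arrays left out, an alternative that for the 6 Tnfr-/- arrays was chosen after seeing the data. The Gapdh 3'/5' ratios given above differed between the genotypes, and their part in these differences was not tested.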

How the results depend on the processing

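The calls depended on the estimate of the spread. In place of 14 higher and 3 lower probe sets, the 6 arrays alone gave 0 and 0, with 282 at a nominal p below 0.01. The methods' t-test gave 0 and 0 after Benjamini-Hochberg adjustment, with 295 at its own threshold. The 12 Tnfr+/+ arrays gave 6 higher, and 126 in place of 206 at a nominal p below 0.01. Without Tnfr+/+ O3 72 h replicate 1 there were 23 higher and 5 lower, and with array weights 26 and 8, and each of these sets held all 17. The strict filter left 96 in place of 148 lower at a nominal p below 0.01. Leaving out 1 of the 6 arrays gave 3 to 11 called higher, 2 to 7 called lower, 115 to 222 higher and 94 to 200 lower at a nominal p below 0.01.

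Over all probe sets, same-numbered O3 and air arrays did not deviate together (correlations of 0.03, 0.05 and -0.06), and differently numbered ones gave -0.08 to 0.05. In the heat shock list, however, replicate 3 was the lowest array of both groups. With 3 arrays a group this check cannot exclude that the replicate numbers pair the mice. With the replicate number as a block 9 were called higher and 5 lower, 12 of them among the 17. Averaging the probe sets of a gene turned Skp2 from 0.33 on its brightest probe set to -0.41 (adjusted p = 0.81), lost the calls of Osmr and Slco1a5 (adjusted p = 0.17 and 0.53) and gave calls to Mt1, Socs3, Pigr and Apoa1 (adjusted p = 0.027, 0.0012, 0.048 and 0.0017). Egr1, at -0.06, ranged between -0.17 and 0.015 with 1 array left out. The median of the unfolded protein response list was -0.01 with probe sets averaged, and the medians of the neutrophil, heat shock, mitosis, matrix and clock lists lay on either side of 0 across settings. Over the 109 named genes and all settings, 1964 values kept their direction and their side of the threshold, 64 lost a call and 22 gained one. Most of these genes were not called on their brightest probe set, so most of the 1964 values had no call to lose. Dim probe sets, among them the 3 that fell, limit what can be said below about 100 units of intensity, and the causes of these shifts were not tested.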

Other observations

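Outside the lists described above, p53 targets had 3 of 23 genes higher and none lower at a nominal p below 0.05, with a median log2 fold change of 0.11. Pmaip1, a BH3-only inducer of apoptosis, had 139, 176 and 173 after O3 and 108, 58.2 and 110.2 in air (0.87, adjusted p = 0.50). Aen, an exonuclease that p53 induces, had 846, 894 and 749 after O3 and 630.0, 679 and 600.0 in air (0.38, adjusted p = 0.53). Both were apart between the groups. Of 24 hypoxia and glycolysis genes 2 were higher and none lower, Ldha, a lactate dehydrogenase subunit (4215, 6124 and 4131 after O3 and 3010.2, 3637 and 3129 in air, adjusted p = 0.44), and Pgk1, a glycolytic kinase (0.42, adjusted p = 0.75). Ptges, which makes prostaglandin E2, was the single one of 19 eicosanoid enzymes under that level, at 495, 449 and 405 after O3 and 334, 316 and 350.1 in air (0.43, adjusted p = 0.65).

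Of the 29 TNF receptor superfamily members and adaptors, Tnfrsf12a rose, and 2 were higher and 3 lower at a nominal p below 0.05. Tnfrsf9, a costimulatory receptor, had 246, 336 and 373 after O3 and 187, 238 and 46.8 in air (1.30, adjusted p = 0.61). Tnfrsf19, a receptor of epithelial progenitors, had 467, 298 and 383 after O3 and 561, 646 and 617 in air (-0.69, adjusted p = 0.58), and Ltb, a lymphotoxin subunit of lymphocytes, had 272, 227 and 375 after O3 and 413, 518 and 465 in air (-0.70, adjusted p = 0.68). Cfp, the complement factor properdin that neutrophils store, stood at 102, 25.0 and 106 after O3 and 178, 147 and 162 in air (-1.32, adjusted p = 0.42), and was the single one of 23 complement genes under that level. Among structural markers 1 gene each stood lower in fibroblast, endothelial and ciliated cell lists, Tcf21 (-0.53), Aplnr (-0.54) and Tekt2 (-0.46), none of which passed (adjusted p = 0.73, 0.78 and 0.80).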
